A study of Mus musculus with 8 samples.

Results

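The comparison described here sets lymph node cells taken 7 days after immunization against the same tissue of naive mice, in B10.BR, an inbred strain. Its 6 arrays, 3 titled day 7 and 3 titled naive, were chosen by their titles out of 8 in the series; the other 2 were taken at day 28. Per the labels, lymph nodes were made into single cells and sorted by flow cytometry, and 10 µg of total RNA was labelled for Affymetrix mouse arrays. Neither the immunogen nor the kind of cell sorted is named in the labels, and no age is given. Nothing there says that replicates came from different mice, so each p-value refers only to how far these arrays scatter, which may be technical.

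A lymph node of a naive mouse holds mostly resting lymphocytes, which enter through homing receptors such as Ccr7 and survive on interleukin 7. After immunization, lymphocytes that recognise the antigen divide and change their surface receptors; among helper T cells, those that move to B cell follicles become follicular helper cells, known for Bcl6, Cxcr5 and interleukin 21. Cell division and follicular helper genes are the best known parts of such a response. The description below therefore dwells on genes outside both sets. In sorted or bulk RNA, more cells of a type and more RNA per cell cannot be told apart.

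Each value is the log2 of a deposited ratio. As the values show, each probe set was scaled to its median across the 8 arrays, or to a shared floor if the median was below it; a value of 0 is that reference point. Levels of different genes therefore cannot be compared. A gene's value is the mean over its tested probe sets, and its difference is the day 7 mean minus the naive mean. Tests used limma with Benjamini-Hochberg adjustment over all 13042 probe sets or all 7825 genes tested, and a change is called when the adjusted p is below 0.05.

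The naive arrays did not lie together. Over all probe sets of the table, the log2 ratios of naive replicates 2 and 3 correlated with r = 0.531, but naive replicate 1 correlated with them with r = 0.080 and -0.056. With the day 7 arrays naive replicate 1 gave r = 0.363, 0.536 and 0.414. These correlations are across probe sets, which are not independent. On the first principal component, which held 43.7% of the variance, naive replicate 1 lay at -44.5, the day 7 arrays between -71.7 and -55.4, and naive replicates 2 and 3 at 64.5 and 85.4. The hybridisation controls, transcripts added to each sample in known amounts, divided the arrays in the same way. Their median log2 ratio over 18 probe sets was -1.16 in naive replicate 1 and -1.70 to -1.03 at day 7, against 0.847 and 0.662 in naive replicates 2 and 3. Naive replicate 1 is thus the only naive array whose controls lie near those of the day 7 arrays, and the results below are given with it, without it and against it alone.

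The sequences just before the starts of 4 genes are shown because these genes recur below: Cdk1, the kinase that drives cells into mitosis, S100a4 and S100a6, neighbouring genes of small calcium-binding proteins, and Igfbp4, which encodes a binding protein of insulin-like growth factors. Each is the 250 bases before the gene start, 5′ to 3′ on the gene's strand, from RefSeq on GRCm38.p6. They lie at chr10:69352913-69353162 on the minus strand for Cdk1, and on the plus strand at chr3:90603520-90603769 for S100a4, chr3:90612644-90612893 for S100a6 and chr11:99040994-99041243 for Igfbp4. Capitals mark the CCAAT box (CCAAT, or ATTGG on the other strand) and the cell cycle homology region (TTTGAA, or TTCAAA on the other strand).

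Cdk1: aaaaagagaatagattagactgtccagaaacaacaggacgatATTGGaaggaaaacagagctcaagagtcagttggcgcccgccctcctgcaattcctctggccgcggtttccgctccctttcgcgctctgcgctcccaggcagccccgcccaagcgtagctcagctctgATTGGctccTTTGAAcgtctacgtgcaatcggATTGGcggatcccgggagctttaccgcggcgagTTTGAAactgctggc
S100a4: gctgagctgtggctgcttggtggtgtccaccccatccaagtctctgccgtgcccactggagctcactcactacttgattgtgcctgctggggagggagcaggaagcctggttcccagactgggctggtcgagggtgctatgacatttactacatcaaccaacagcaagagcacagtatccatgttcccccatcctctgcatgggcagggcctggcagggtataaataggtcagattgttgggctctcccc
S100a6: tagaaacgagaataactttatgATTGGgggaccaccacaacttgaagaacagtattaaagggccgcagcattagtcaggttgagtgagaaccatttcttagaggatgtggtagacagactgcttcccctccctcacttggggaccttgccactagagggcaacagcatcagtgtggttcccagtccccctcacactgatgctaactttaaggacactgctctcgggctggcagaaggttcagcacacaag
Igfbp4: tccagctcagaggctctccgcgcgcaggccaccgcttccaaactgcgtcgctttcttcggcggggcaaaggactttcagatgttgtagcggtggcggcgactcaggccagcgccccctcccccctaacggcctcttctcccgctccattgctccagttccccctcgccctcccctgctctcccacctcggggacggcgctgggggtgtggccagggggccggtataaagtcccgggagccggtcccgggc

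The Cdk1 sequence holds 3 CCAAT boxes and 2 cell cycle homology regions, the nearest starting 15 bases before the gene start. S100a6 holds 1 CCAAT box, and no match to either motif was found in the S100a4 and Igfbp4 sequences.

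Across the array, day 7 differed from naive mainly upward. Of 13042 probe sets, 152 (1.17%) passed the threshold, 138 (1.06%) higher and 14 (0.107%) lower at day 7. Of 7825 genes, 137 (1.75%) passed, 123 (1.57%) higher and 14 (0.179%) lower. In each of the 137 genes the 3 day 7 arrays lay wholly above or below the 3 naive arrays, as they did for 22.6% of all genes tested (14.3% higher, 8.26% lower). The median difference over all genes was 0.12, and 0.00 after quantile normalization, and changes are to be read against it. Against naive replicate 1 alone the median was -0.01. There 49.3% of genes were higher at day 7, against 57.4% with all 3 naive arrays. Many large differences did not pass: 272 genes were higher at day 7 by at least 4-fold, of which 172 did not pass, and 46 were lower by as much, of which 36 did not pass. The naive arrays of the probe sets with such large rises that did not pass spread with a median SD of 1.4, against 0.39 for those that passed.

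Of the 137 genes, 28 stood in the lists of mitosis and DNA replication genes, 10 in the follicular helper list and 99 in neither, 85 of them higher and 14 lower at day 7. The 85 had a median difference of 2.61, the 28 cell cycle genes of 2.76 and the 10 follicular helper genes of 3.65. Of the 99 genes, 27 stood in another list and 72 in none. The lists and genes were chosen with earlier results of these data known. Counts of rises and falls per list are to be read against the shares over all genes tested, 1.57% higher and 0.179% lower.

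The calcium-binding S100 proteins, the membrane-binding annexins and the sugar-binding galectins, many of them abundant in activated and memory lymphocytes, held the most rises for their number outside both sets. Of 18 list members tested, 5 rose, none fell, and the median difference was 1.24. S100a4 lay at -2.31, -2.70 and -2.93 in naive replicates 1 to 3 and at 2.19, 2.06 and 2.30 at day 7. The groups stood far apart, and the naive arrays lay close together. The difference was 4.83 ± 0.29 (SE, n = 3 and 3), a 28.5-fold rise (limma adjusted p = 0.000492). S100a6 lay at -1.34, -1.57 and -0.59 in the naive arrays and at 3.62, 2.83 and 3.12 at day 7, a difference of 4.36 ± 0.35 (limma adjusted p = 0.00159). S100a6 lies close to S100a4 on chromosome 3, with 1 protein-coding gene between them.

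Lgals3, which encodes galectin 3, lay at -0.78, -1.56 and -1.42 in the naive arrays and at 2.56, 3.49 and 4.34 at day 7. Naive replicate 1 was the highest naive array but stayed below every day 7 array, and the difference was 4.72 ± 0.47 (limma adjusted p = 0.00508). Lgals1 (galectin 1) rose by 3.32 and Anxa2, a membrane-linking annexin, by 3.99 (limma adjusted p = 0.0214 and 0.0298). Both lost the call without naive replicate 2 or 3 or without day 7 replicate 1 or 3, with adjusted p up to 0.111 for Lgals1 and 0.144 for Anxa2. S100a10, the partner protein of annexin A2, was higher by 2.15 with no overlap between groups but did not pass (limma adjusted p = 0.104). The members that did not rise included Anxa6, at a difference of -1.34, and Lgals9, at -0.53.

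The list of helper lineage transcription factors gave 6 rises among 28 members tested, none fell, and the median difference was 0.73. The 6 include Plagl1, which was put in this list with earlier results of these data known. Its place there does not make it a factor of helper T cell fates. Plagl1, a zinc finger factor, lay at -0.74, -0.81 and -0.85 in the naive arrays and at 3.97, 4.03 and 4.39 at day 7. The day 28 arrays, at -0.80 and -0.71, lay among the naive values, so that only the day 7 arrays stood above 0. The difference was 4.93 ± 0.25 (SE, n = 3 and 3), a 30.5-fold rise (limma adjusted p = 0.000189). More than 4 of its 8 arrays lie below 0, so its reference point is the floor and the size of the fold is uncertain. The small scatter of arrays below the floor may not reflect measured levels, so the SE and p are uncertain too. The same limits hold for Ptger2, Egln3, Coro2b, Il21 and Pclaf, among others, described below. In Plagl1 and these named genes all naive and day 28 arrays lie below 0. They met the filter on low ratios, a ratio of at least 1 on 2 or more arrays, through day 7 arrays alone. Their entry into the tests thus already rested on the high day 7 values that were then tested.

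Bhlhe40, a repressor of interleukin 10 in helper T cells, lay at -1.45, -1.44 and -0.59 in the naive arrays and at 2.23, 2.67 and 2.59 at day 7. The groups did not overlap, and the rise was 3.66 ± 0.35 (limma adjusted p = 0.00494). Rora, a nuclear receptor of innate and Th17 lymphocytes, rose by 2.05, and Id2, an inhibitor of E proteins, by 1.87 (limma adjusted p = 0.0262 and 0.0356). The hypoxia factor Hif1a rose by 3.43 and the aryl hydrocarbon receptor Ahr by 1.83 (limma adjusted p = 0.0451 and 0.0403). Calls of Hif1a, Ahr and Id2 held in only 1 of the 8 fits that left out an array, the one without naive replicate 1. Tbx21, the Th1 factor, was higher by 2.28 (limma adjusted p = 0.149), and Foxp3, the factor of regulatory T cells, differed by -0.95 with overlapping groups (limma adjusted p = 0.442).

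Receptors of migration changed in both directions. Among 16 chemokines and chemokine receptors tested, 2 rose and 1 fell. Cxcr3, a receptor that draws lymphocytes to inflamed tissue, lay at -1.80, -1.81 and -0.98 in the naive arrays and at 2.93, 3.76 and 2.95 at day 7. The groups did not overlap, and the rise was 4.74 ± 0.38, or 26.7-fold (limma adjusted p = 0.00159). Ccr6 rose by 2.99 (limma adjusted p = 0.0405), with calls in 2 of the 8 fits that left out an array.

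Ccr7, the receptor that brings naive T cells and dendritic cells into lymph nodes, lay at 0.75, 4.01 and 3.74 in the naive arrays and at -2.08, -1.36 and -1.65 at day 7. Naive replicate 1 lay between the other naive arrays and the day 7 arrays. The fall was by 4.53 on the log2 scale (limma adjusted p = 0.0403), and the difference was -2.45 against naive replicate 1 and -5.57 against the other naive arrays. The call held in 1 of the 8 fits that left out an array, the one without naive replicate 1. Among 21 integrin and adhesion genes 1 rose and 1 fell. Cd44, a receptor for hyaluronan and a marker of antigen-experienced T cells, rose by 2.57 (limma adjusted p = 0.0233). Selplg, the ligand of P-selectin, fell by 2.99 (limma adjusted p = 0.0356). Ptger2, a receptor for prostaglandin E2 that stood in no list, lay at -0.34, -0.30 and -0.02 in the naive arrays and at 3.76, 3.66 and 3.45 at day 7. The arrays of each group lay close together, the naive ones below the floor, and it rose by 3.84 ± 0.24 (limma adjusted p = 0.000531).

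Of 22 costimulatory and inhibitory receptors tested, 3 rose and none fell. Ctla4, which restrains T cell activation, rose by 3.26, from -0.87, -1.40 and -2.20 in the naive arrays to 2.60, 1.0 and 1.70 at day 7 (limma adjusted p = 0.0225). Tnfsf11, the ligand known as RANKL, rose by 2.62, and Cd160, an inhibitory receptor, by 2.14 (limma adjusted p = 0.00874 and 0.0174). Tnfrsf4, the receptor OX40, was higher by 3.15 with no overlap but did not pass (limma adjusted p = 0.0561). Ctla4 and its list neighbour in the follicular helper set, Icos, are adjacent genes on chromosome 1, and both rose.

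No member of the 27 cytokines and cytokine receptors tested passed. Ifng, the Th1 cytokine, lay at -0.69, -0.36 and 0.03 in the naive arrays and at 2.70, 6.30 and 3.07 at day 7. Its groups did not overlap, and the difference was 4.37 (limma adjusted p = 0.0511). Il18r1, a receptor chain for interleukin 18, was higher by 3.79, but by 1.76 against naive replicate 1. Il7r, the receptor for interleukin 7, lay at 2.76, 1.81 and 0.19 in the naive arrays and at -0.64, -0.73 and -0.67 at day 7, a difference of -2.27 (limma adjusted p = 0.109).

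Genes of cell death and inflammation gave 3 rises among 31 tested. Casp4, an inflammatory caspase that senses cytosolic endotoxin, lay at -2.31, -2.06 and -1.01 in the naive arrays and at 3.92, 2.12 and 3.27 at day 7. It rose by 4.90 ± 0.53 (limma adjusted p = 0.00695), with no overlap. Casp1, the interleukin 1 converting enzyme and its neighbour on chromosome 9, rose by 3.17, from -2.72, -2.81 and -2.18 to 1.31, 0.24 and 0.25 (limma adjusted p = 0.00804). Gadd45b, a stress-induced gene, rose by 3.22 (limma adjusted p = 0.0284). Nkg7, a protein of cytotoxic granules, lay at -2.69, -3.73 and -3.37 in the naive arrays and at 0.21, 1.72 and 0.45 at day 7. Nkg7 rose by 4.05 ± 0.46 (limma adjusted p = 0.00695). It was the only member that passed among 10 CD8 and cytotoxic and 8 NK cell genes, while Cd8a differed by 0.43 and Klrd1 by -0.91.

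Few genes of the glycolysis and oxidative phosphorylation lists passed. Enzymes in no list passed as well, such as Psat1, which rose by 3.64 (limma adjusted p = 0.00804), and Aldh2, described below. Of 19 glycolysis genes 1 rose: Tpi1, the triosephosphate isomerase, went from -0.47, -0.09 and -0.23 to 3.73, 1.91 and 3.18 (difference 3.20 ± 0.46, limma adjusted p = 0.0214). The list's median was 0.35, and Ldhb, a lactate dehydrogenase subunit, lay lower by 1.47 with no overlap but did not pass (limma adjusted p = 0.109). None of 55 oxidative phosphorylation genes passed; 26 had an unadjusted p below 0.05, all higher, and the list's median was 0.84. Of all genes, 13.6% were higher and 3.42% lower at that p. None of 54 mitochondrial ribosome genes or of 41 proteasome genes passed, with medians of 0.66 and 0.65. The 41 cytosolic ribosome genes had a median of -0.19. Other genes in no list that rose included Egln3, an oxygen-sensing prolyl hydroxylase, by 3.59, and Coro2b, a coronin that binds actin, by 3.52. Gpm6b, a membrane proteolipid, rose by 3.20 (limma adjusted p = 0.00695, 0.00248 and 0.00508 for the 3 genes).

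The 14 falls were all outside the cell cycle and follicular helper lists. Of 33 genes of the naive state and quiescence, 3 fell, none rose, and the median difference was -0.37. Igfbp4 lay at 2.43, 2.19 and 2.37 in the naive arrays and at -2.97, -2.50 and -2.88 at day 7. Its day 28 arrays lay between the groups, at 0.13 and -0.18. Igfbp4 fell by 5.11 on the log2 scale (SE 0.26), or 34.6-fold (limma adjusted p = 0.000189). Slfn8, a Schlafen gene, fell by 3.10, from 1.41, 1.48 and 0.60 to -2.16, -1.89 and -1.77 (limma adjusted p = 0.00600). Ccr7, given above, also fell, and Igfbp4 and Ccr7 lie on chromosome 11 with 1 protein-coding gene between them.

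Tdrp, a gene known from the testis, fell by 4.06, from 1.23, 1.98 and 1.58 to -1.86, -2.97 and -2.56 (limma adjusted p = 0.00695). Aldh2, the mitochondrial aldehyde dehydrogenase, fell by 2.11, and Rxrb, a retinoid X receptor, by 1.55 (limma adjusted p = 0.0225 and 0.0274). Lef1, a transcription factor of naive T cells, was lower by 3.11 but did not pass (limma adjusted p = 0.0897). Lef1 lay at 0.88, 3.81 and 3.68 in the naive arrays and at -0.10, -0.74 and -0.11 at day 7. Naive replicate 1 again lay nearer to day 7 than to the other naive arrays.

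**Figure D1:**
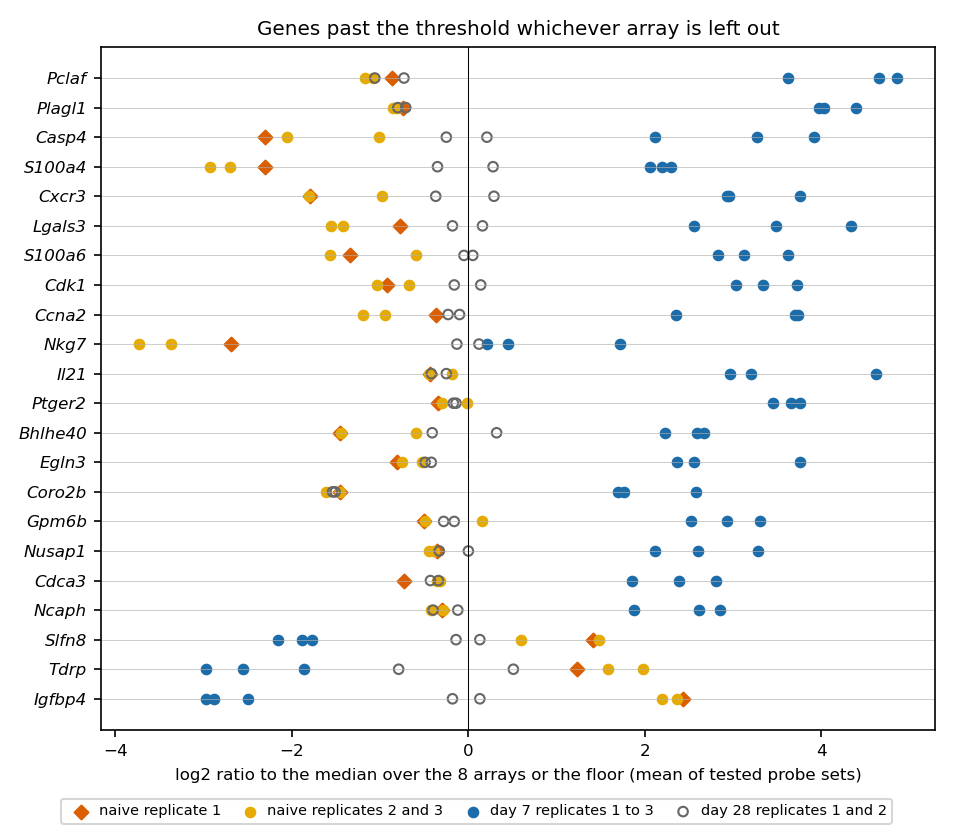
Log2 ratio (horizontal axis, to the median over the 8 arrays or the floor) of the 22 genes that passed the threshold in all 8 fits that each left out 1 array; each symbol is 1 array, and rows are ordered by the difference between day 7 and naive. The day 7 arrays lie apart from all 3 naive arrays in every row, and naive replicate 1 lies beside naive replicates 2 and 3.

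The plot of values by array shows the 22 genes whose call held whichever array was left out. They are Plagl1, Casp4, S100a4, Cxcr3, Lgals3, S100a6, Nkg7, Ptger2, Bhlhe40, Egln3, Coro2b, Gpm6b, Slfn8, Tdrp and Igfbp4 outside both sets, Il21, and the cell cycle genes Pclaf, Cdk1, Ccna2, Nusap1, Cdca3 and Ncaph. Of the 99 genes outside both sets, 16 kept the call without naive replicate 2, 25 without naive replicate 3, and 40, 37 and 19 without day 7 replicates 1, 2 and 3. All 99 kept it without naive replicate 1. Every other call named here was lost without at least 1 array. Among the 22, genes such as Plagl1, Ptger2, Egln3, Coro2b, Il21 and Pclaf met the filter on low ratios through day 7 arrays alone.

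The cell cycle and follicular helper genes that passed are given for comparison. Cdk1 lay at -0.92, -0.67 and -1.04 in the naive arrays and at 3.34, 3.03 and 3.73 at day 7, a rise of 4.24 ± 0.28 (limma adjusted p = 0.000549). Il21, the follicular helper cytokine, lay at -0.44, -0.45 and -0.19 in the naive arrays and at 4.62, 2.97 and 3.20 at day 7, a rise of 3.95 ± 0.44 (limma adjusted p = 0.00695). The 3 day 7 arrays did not order the gene groups alike. Of the 10 follicular helper genes that passed, 9 were highest in day 7 replicate 1 and 9 lowest in day 7 replicate 2, as with Cxcr5 at 2.38, -0.91 and 1.63. Of all genes tested, 47.8% were highest in day 7 replicate 1 and 46.4% lowest in day 7 replicate 2. Of the 28 cell cycle genes that passed, 17 were lowest in day 7 replicate 1, against 29.5% of all genes tested. Of all 123 genes that rose, 54 were highest and 47 lowest in day 7 replicate 1, and 52 were lowest in day 7 replicate 2.

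Without naive replicate 1, 1121 genes (14.3%) passed, 976 higher (12.5%) and 145 lower (1.85%), all 137 among them. In probe sets the count was 1727 (13.2%), 1516 higher (11.6%) and 211 lower (1.62%), all 152 among them. Higher probe sets made up 87.8% of the calls, and 77.7% after quantile normalization. The array left out then served as a naive array that the calls had not used. Of the 1516 probe sets that rose, 962 (63.5%) were higher at day 7 than in naive replicate 1, 402 (26.5%) by at least 2-fold, and 90 were lower at day 7 by at least 2-fold. Their median difference was 2.28 against naive replicates 2 and 3 and 0.35 against naive replicate 1. Of the 211 that fell, 147 were lower at day 7 than in naive replicate 1, 61 by at least 2-fold, with a median fall of 2.20 against 0.48. The same day 7 arrays enter each pair of differences.

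Set on a scale from 0, the mean of naive replicates 2 and 3, to 1, the day 7 mean, naive replicate 1 had a median position of 0.850 for the 1516 probe sets and was nearer to day 7 for 1178 of them (77.7%). For the 138 probe sets that rose with all arrays its median position was 0.116, and it was nearer to day 7 for 4. All 152 probe sets differed from naive replicate 1 by at least 2-fold in the direction of the call, the smallest by 1.33, and all 3 day 7 arrays lay beyond it. A call with all arrays needs a small spread among the naive arrays, so these counts follow in part from the call. The smallest differences from naive replicate 1 among named probe sets that passed were those of the mitotic kinase Plk1 (1.33), Hspa4l (1.36), Chn2 (1.38), Racgap1 (1.49) and the histone H2ax (1.51).

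**Figure D2:**
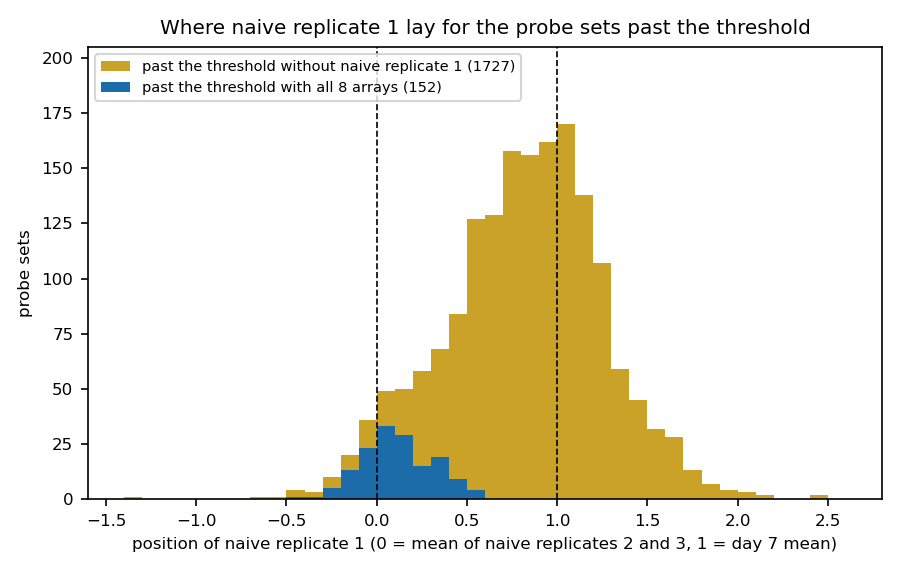
Number of probe sets (vertical axis) by the position of naive replicate 1 on a scale from 0, the mean of naive replicates 2 and 3, to 1, the day 7 mean. For the 1727 probe sets that passed without naive replicate 1 most positions lie near 1, and for the 152 that passed with all 8 arrays they lie near 0.

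With naive replicate 1 as the only naive array, the comparison within the arrays of low hybridisation controls, 1 probe set (0.00767%, lower at day 7, likewise 0.00767%) and 10 genes (0.128%) passed. This fit assumes that a lone array varies like those of the other groups. The genes were S100a6, S100a4, Plagl1, Cdk1 and Ptger2 (0.0639%), which were higher at day 7, and Igfbp4, Adh1, Il7r, Dntt and Oasl2 (0.0639%), which were lower. At an unadjusted p below 0.05 in limma, 494 probe sets were higher (3.79%) and 740 lower (5.67%), against 1618 (12.4%) and 402 (3.08%) with all naive arrays, so the excess of rises over falls turned. The split was 482 and 611 after quantile normalization. All 137 genes of the comparison had an unadjusted p below 0.05 in the same direction against naive replicate 1, which follows in part from their choice, since that array and the same day 7 arrays entered the call. With a term for low against high hybridisation controls, limma called 14 probe sets and 18 genes, 15 of the 137 genes among them, Plagl1, S100a4, S100a6, Cxcr3, Ptger2 and Igfbp4 included. Within a group, that term separates only naive replicate 1 from naive replicates 2 and 3. The difference it tests is therefore again the day 7 mean minus naive replicate 1. Only the estimate of the spread differs, so it is not a separate check.

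**Figure D3:**
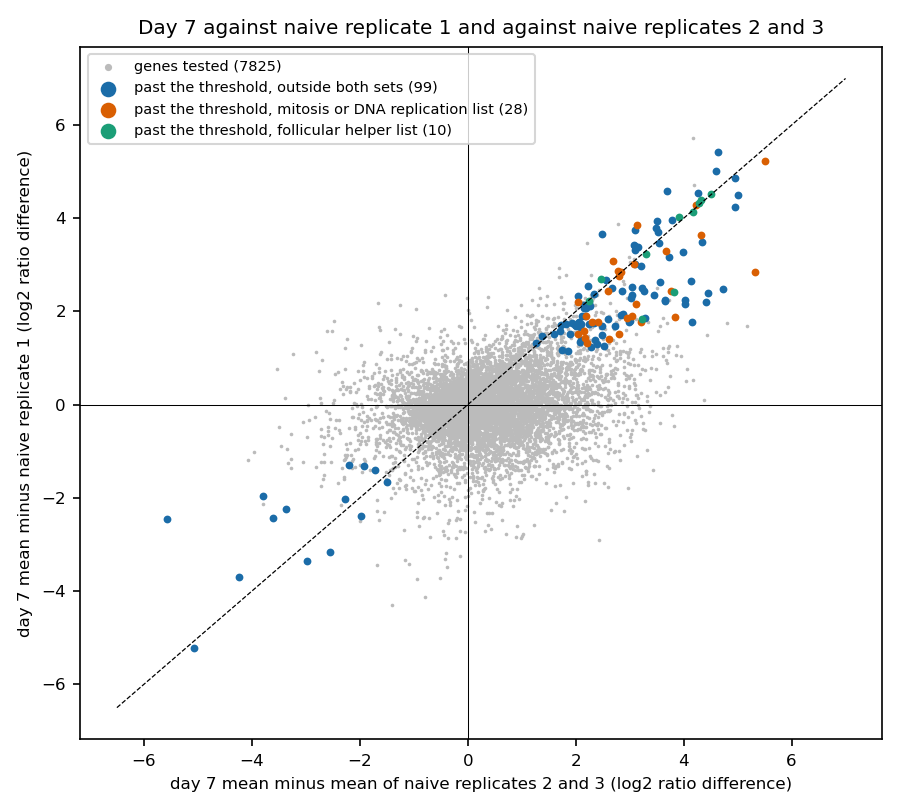
Difference of the day 7 mean from naive replicate 1 (vertical axis) against that from the mean of naive replicates 2 and 3 (horizontal axis), both log2 ratios, for each of 7825 genes; the dashed line marks equal differences. The 137 genes that passed have the same sign on both axes, which follows from their groups not overlapping. The wide grey cloud lies along the horizontal axis around 0 on the vertical one.

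The scatter of the 2 differences shows the same for genes. The 85 rises outside both sets had a median difference of 2.21 from naive replicate 1 and 2.85 from naive replicates 2 and 3. The 28 cell cycle rises had 2.18 and 2.82, and the 10 follicular helper rises 3.64 and 3.86. The gap between these medians was smallest for the follicular helper genes.

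Gene lists depended on the naive array to different degrees. The follicular helper list had a median difference of 1.85 from naive replicate 1 and 2.24 from the other naive arrays, and the S100, annexin and galectin list 1.12 and 1.18. Proteins of folding and secretion in the endoplasmic reticulum, which are abundant in secreting cells, gave 0.22 against naive replicate 1 and 1.24 against the others. None of the 37 members passed with all arrays, and 14 (37.8%) passed without naive replicate 1, against 12.5% of all genes. Spcs1, a signal peptidase subunit, lay at 0.40, -1.92 and -2.24 in the naive arrays and at 2.29, 1.21 and 1.44 at day 7. It differed by 1.25 from naive replicate 1 and by 3.73 from the others.

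Oxidative phosphorylation genes had medians of 0.67 and 0.83. Without naive replicate 1, 17 of 55 (30.9%) passed as higher, against 12.5% of all genes. Genes of the interferon response lay lower at day 7, with a median of -0.54, and none of 32 passed. Their list medians were 0.98, 0.93 and -0.62 in naive replicates 1 to 3 and 0.08, -0.36 and -0.03 at day 7, so here naive replicate 3 was the array that stood apart. Usp18, an interferon-induced protease, lay at 3.52, 3.38 and -0.98 in the naive arrays and at 0.13, 0.34 and -0.14 at day 7. T cell identity genes had a median of -0.21, which turned to 0.23 against naive replicate 1 and was -0.67 without it. None of the 13 passed with all arrays, and 3 passed as lower without naive replicate 1, against 1.85% of all genes. Lists near 0 also turned with the scaling: after quantile normalization the integrins went from 0.09 to -0.01 and nucleolar genes from 0.07 to -0.05.

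**Figure D4:**
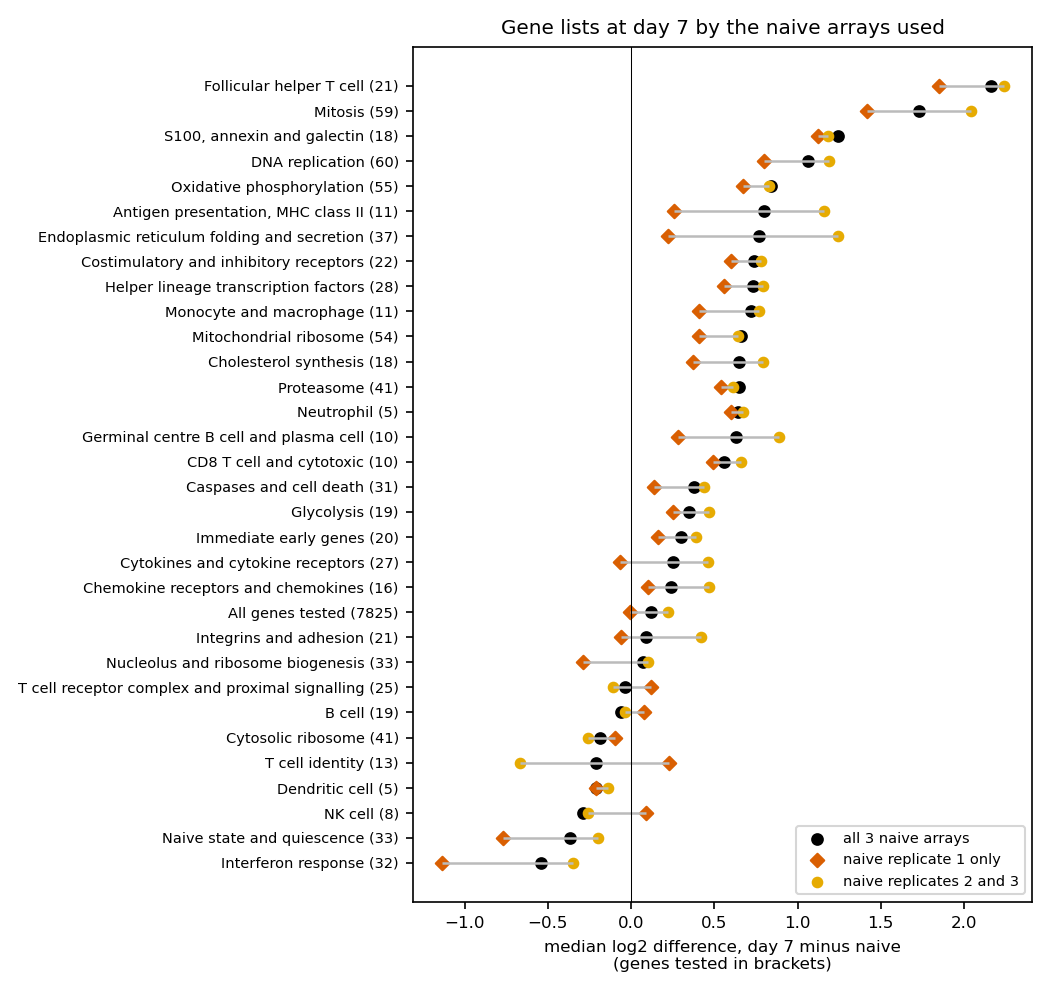
Median log2 difference between day 7 and naive (horizontal axis) over the tested genes of each list, with all 3 naive arrays, with naive replicate 1 only and with naive replicates 2 and 3; the grey line joins the last pair. The follicular helper and mitosis lists lie highest with each choice, while the endoplasmic reticulum list moves from 0.22 to 1.24.

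Markers of cell types were used to check the labelled tissue. T cell genes were measured in both groups, with Cd3e at 0.10, 1.18 and -0.40 in the naive arrays and -0.51, 1.40 and -0.11 at day 7, and Cd4 at -0.26, 0.80 and -0.84 and -0.04, -0.11 and -0.27. Neither differed beyond the spread (limma adjusted p = 0.990 and 0.973). Of 19 B cell genes none passed, and the median was -0.06. Of 11 genes of antigen presentation by MHC class II, 1 rose, Cd83, an activation marker of dendritic and B cells, by 2.87 (limma adjusted p = 0.0214). The class II genes H2-Aa and H2-Eb1 differed by 0.96 and 0.97, with overlapping groups. None of 11 monocyte and macrophage, 5 dendritic cell, 5 neutrophil or 4 erythroid and platelet genes passed. Of all genes tested only 1.75% passed, so a count of 0 in such short lists cannot show whether these cells were present or changed. S100a8 and S100a9 of neutrophils reached 2.84 and 2.78 in day 7 replicate 3 alone. The part of such cells in the changes was not tested.

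RNA and sex markers varied within groups too. For Gapdh, the 3′ probe set minus the 5′ one gave 0.54, 0.17 and 0.57 in the naive arrays and -1.04, -1.18 and 1.17 at day 7, and that of beta-actin 0.93, 0.05 and -0.01 against -0.42, 1.27 and 2.76. Xist, the RNA of the inactive X chromosome, lay in 1 of its probe sets at -5.25, -5.58 and -2.17 in the naive arrays and at 1.84, 0.98 and 1.48 at day 7. The day 7 arrays were all higher, but the difference of 5.77 did not pass (limma adjusted p = 0.142). The Y-linked Eif2s3y lay at 2.87 in naive replicate 1, at -0.04 and 0.24 in the other naive arrays, and between -0.59 and 0.04 at day 7. The labels give no sex, and its part in the results was not tested.

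Probe sets of a gene agreed in direction more often than in size. At least 1 probe set passed for 119 genes, of which 47 have a single probe set on the array and 63 had 1 tested. Of the 56 genes with 2 or more tested, all probe sets had the same sign in 50 and all passed in 6. Among all 2610 genes with 2 or more tested, the sign was shared in 1493 (57.2%). A shared sign is more likely where 1 probe set was chosen for a large difference. The gap between the highest and the lowest had a median of 1.78 in the 56 genes and 0.72 in all. Among the genes that rose, the probe sets that passed had a median difference of 2.71 and the other tested probe sets of the same genes 1.30.

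Igfbp4 is measured by 6 probe sets. The differences of 4 that passed were -7.55, -5.43, -6.32 and -5.19, another gave -1.08 (limma adjusted p = 0.173), and the filter on low ratios had removed the last, at -0.19. The strongest lay at 3.79, 2.92 and 2.95 in the naive arrays and -4.15, -4.43 and -4.39 at day 7. All 6 had a lower mean at day 7, with sizes from -0.19 to -7.55. The removed one, however, lay at -1.26, -0.54 and -1.32 in the naive arrays and at -1.22, -1.25 and -1.23 at day 7. Its lower mean thus rested on naive replicate 2 alone. Pclaf, a clamp-binding protein of replication, gave 5.41 in 1 probe set and 0.21 in a removed one. Plagl1 gave 4.93 and, in a removed probe set that lay between -0.79 and -0.59 on the naive and day 7 arrays, -0.10. For Ccdc50 the values ran from 4.27 to -0.12, for Hmmr, a receptor for hyaluronan, from 4.32 to -0.06, and for Anxa2 from 3.99 to -0.35. In each of these the probe set without a change had been removed as low, so it was not tested.

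Among tested probe sets, Cd44 gave 4.45 and 0.68 and Cd160 gave 4.22, 1.41 and 0.79. The Tpi1 probe sets agreed most closely, at 3.19, 3.20 and 3.21, all past the threshold. Lgals1 gave 3.34, which passed, and 3.31, which did not (limma adjusted p = 0.0389 and 0.0821). S100a4, Cxcr3, Casp4 and Nkg7 rest on 1 probe set each, so no other checks them. In all, 28 of the 119 genes had a removed probe set, with the same sign in 17. In the 25 that rose, the removed ones had a median difference of 0.006. By gene means 137 genes passed, 96 of them with a probe set that passed, while 41 passed by the mean alone and 23 by a probe set alone.

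**Figure D5:**
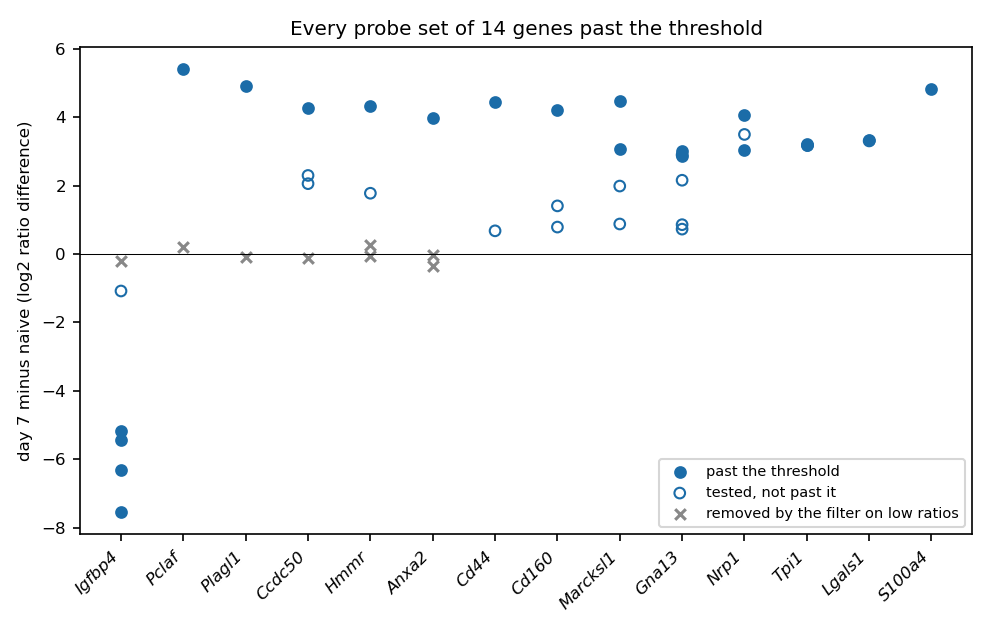
Difference between day 7 and naive (vertical axis, log2 ratio) of every probe set of 14 genes with a probe set past the threshold; filled circles passed, open circles were tested and did not pass, and crosses were removed by the filter on low ratios. The 3 probe sets of Tpi1 coincide near 3.20, while those of Igfbp4 run from -0.19 to -7.55.

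The promoter table matched 24 of the 28 cell cycle genes that rose, with 26 windows of 300 bases that begin 250 before the gene start, 70 of the 85 other genes with 88, and 9 of the 14 that fell with 15. A CCAAT box stood in 76.9% of the cell cycle windows, 39.8% of the other rises and 20.0% of the falls, against 37.6% of the windows of all genes tested and 37.4% of all 32851 in the table. The cell cycle homology region stood in 53.8%, 17.0% and 13.3%, against 12.4% and 17.9%. Windows of the rises outside both sets thus held both motifs about as often as windows at large. An AP-1 site (TGACTCA), a cyclic AMP response element (TGACGTCA) and an E2F site (TTTCCCGC) were also searched. They stood in 0.0%, 3.85% and 7.69% of the cell cycle windows. The shares were 4.55%, 1.14% and 1.14% in the other rises, and 3.96%, 2.94% and 2.02% in windows of all genes tested. Both strands were searched, a match is a string of letters and not a known site, and windows of 1 gene can overlap.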

How the data were processed

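The values deposited by the authors are linear ratios; GCRMA is named, without a version, in the submitters' processing notes. How ratios were scaled was inferred: the 8-array median equals 1 (within 0.0015) for 47.9% of probe sets and exceeds it for none. Tests kept the 13042 (57.6%) of 22626 non-control probe sets whose ratio reached 1 on 2 or more arrays.

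Log2 ratios were fitted with limma 3.58.1 in R 4.3.3, with 1 mean for each of naive, day 7 and day 28 over the 8 arrays, empirical Bayes moderation, two-sided tests and Benjamini-Hochberg adjustment. The code was tested on simulated data. The number of arrays limits the precision. Of the probe sets, 20380 carried 1 symbol, 691 several and 1555 none in GEO's platform annotation, and 20351 matched RefSeq by gene identifier (0 symbols changed).

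Members, lists and rules were chosen with earlier results of these data known. Names were drawn from up to 12 each of the largest rises and falls outside both sets, among probe sets that passed. Further names came from list members that passed and from genes whose probe sets differ most. Genes nearest to and farthest from naive replicate 1, and markers, were added. Not all of these are described. The rises of Marcksl1 and Nrp1 and the falls of Arhgef18, Slc9a3r1, Dnm2 and Rcsd1 were left out, among others. Other names, such as Egln3, Coro2b and Ptger2, were picked after their values were seen. For pairing, the mean of its group was first taken off each tested probe set, unlike in the correlations given above. Same-numbered naive and day 7 arrays then gave correlations of -0.234, -0.365 and 0.100, so the numbers were not taken as pairs. Alternatives were other filters, scalings and variance models, array weights, a replicate block, and leaving out arrays.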

Additional observations from a re-analysis of the deposited data

How the results depend on the processing

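Against 152 probe sets and 137 genes called, other settings gave these counts of probe sets and, second, genes. No filter gave 94 and 70, and the stricter filter 76 probe sets. A trended variance gave 21 and 83, the 6 naive and day 7 arrays alone 68 and 84, and a term for the hybridisation controls 14 and 18. Array weights, whose estimation did not converge, gave 2935 and 1852. The replicate block gave 16 and 47, although the numbers do not pair the arrays. An adjusted p below 0.01 gave 31 and 29, and naive replicate 1 as the only naive array 1 and 10. Leaving out 1 array gave 17 to 1727 probe sets and 25 to 1121 genes, the highest without naive replicate 1 and the lowest without naive replicate 2; without day 7 replicate 3 it gave 18 and 27. Quantile normalization, median centring and robust variance stayed within 1.5 times of both counts. All 152 probe sets kept their sign in every fit that left out a naive or day 7 array. The groups overlapped in none of the 152, so leaving out an array could not change the sign. No named gene that passed changed sign under any setting run. Cd4 and Cd3e, near 0 at -0.04 each, turned to 0.13 and 0.15 with naive replicate 1 as the only naive array, and changed sign under some other settings.

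Alternatives chosen after seeing the data were run on 3 counts. Without naive replicate 1, no filter gave 1006 in place of 1727 probe sets. The count of probe sets at least 2-fold from naive replicate 1 was 92 with no filter and 76 with the stricter one. Genes whose probe sets all shared a sign numbered 34 of 46 with no filter and 18 of 22 with the stricter one. In the main setting they numbered 50 of 56. The ratios carry no level, so signal over background limits genes at the floor in a way that cannot be read here.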

Other observations

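Genes that were high in naive replicate 1 alone, or in it most, stood apart from the response at day 7. Dntt, the terminal transferase of developing lymphocytes, lay at 3.44 in naive replicate 1, at -0.28 and 0.49 in the other naive arrays, and between -0.76 and -0.62 at day 7. Oasl2, an interferon-induced gene, lay at 3.23, 0.67 and -0.44 in the naive arrays and between -0.51 and -0.12 at day 7. Adh1, an alcohol dehydrogenase that makes retinal, lay at 4.36, 3.07 and -0.10 in the naive arrays and between -0.26 and 0.48 at day 7. All 3 were lower at day 7 against naive replicate 1 alone (limma adjusted p = 0.0361, 0.0435 and 0.0435). None passed with all naive arrays (limma adjusted p = 0.297, 0.414 and 0.276).

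Naive replicate 1 and day 7 replicate 2 held 503 exactly equal values, as deposited and with no tolerance, over all probe sets of the table, the most of any pair of arrays; the pair of day 7 replicates 1 and 3 held 217.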
